A study of Mus musculus with 18 samples.

Results

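The genes described here encode the machinery that moves a young neuron: the LIS1 and doublecortin microtubule module, the Reelin receptors with their adaptor, small GTPases, actin crosslinkers, stathmins, structural microtubule-associated proteins and tubulins. They were a list of 39 genes, each represented by the brightest probe set that the array annotation assigned to that gene alone. A single-gene probe set was found for 37 of the 39, and all 37 lay above the filter on dim signals, among 14292 genes tested in all. Pak1 and Tuba1b had no such probe set and were not measured.

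A migrating neuron extends a leading process and then pulls its nucleus forward along microtubules. LIS1 and its partners NDE1 and NDEL1 regulate the dynein motor that does the pulling, doublecortin stabilises the microtubules, and the kinase CDK5 phosphorylates several of these proteins. Reelin signals through the receptors VLDLR and LRP8 to DAB1, while small GTPases steer the actin filaments of the leading process, and stathmins, MAPs and tubulin isotypes set how stable the microtubules are.

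Cortical interneurons of GAD65-GFP mice, labelled as derived from the caudal ganglionic eminence (CGE), were isolated by FACS. The control mice carried the GAD65-GFP transgene alone, and the Htr3a-KO mice carried it together with loss of Htr3a, a subunit of the serotonin-gated ion channel. Cells were taken at embryonic age E14.5 while migrating tangentially, at E18.5 on entry into the cortical plate and at postnatal age P2 on settling. Each of the 6 groups had 3 arrays, 1 for each of 3 litters, and each of these pooled at least 4 brains, so that the spread between arrays is between pools and not between animals. Sorting on the reporter takes any cell with reporter signal, and in such pooled RNA fewer cells of a type cannot be told apart from less RNA per cell.

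Values below are log2 intensities, on which a difference of 1 is a doubling, and a gene passed a comparison at an adjusted p under 0.05 (limma, adjusted over all 14292 genes). Intensities of different probe sets are not comparable as amounts, so each gene is compared only with itself. Array medians lay between 6.35 and 6.45. Htr3a read 7.65 to 8.49 in E14.5 control arrays against 7.19 to 7.41 in Htr3a-KO (difference -0.75, adjusted p 0.708), 9.64 to 10.79 against 6.61 to 7.09 at E18.5 (-3.51, adjusted p 7.66e-06) and 8.61 to 9.11 against 6.71 to 7.01 at P2 (-1.94, adjusted p 0.0109). The GABA-synthesising enzyme gene Gad1 had group means of 11.15 to 11.84. Of the CGE markers, Prox1 had 5.55 to 7.04, Sp8 7.99 to 8.68, Nr2f2 9.08 to 9.75 and Nr2f1 11.66 to 12.55. Of the markers of medial ganglionic eminence interneurons, Nkx2-1 had 5.81 to 6.07, Lhx6 7.79 to 10.22 and Satb1 11.17 to 11.48. The excitatory neuron marker Neurod6 had 10.02 to 12.16. On the E14.5 Htr3a-KO array 2, Xist read 7.87 against 10.86 to 12.67 on all other arrays, and on the E18.5 control array 2 the Y-linked Eif2s3y read 4.07 against 8.25 to 9.78 on the others.

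Promoter windows were found for 28 of the 39 genes in RefSeq sequence of build GRCm38.p6. The windows shown belong to members that changed from E14.5 to P2 in both genotypes: Rnd3 and Tubb3, which fell, and Rac3 and Tubb2a, which rose. Each is the 250 bases before the annotated start, 5′ to 3′ on the gene's own strand, with 2 motifs in capitals: the E-box CAGATG and the GC box GGGCGG, each also read on the other strand, as CATCTG and CCGCCC. The windows and motifs were chosen after the values were seen. Rnd3 lies at chr2:51149112-51149361 on the minus strand, Tubb3 at chr8:123411303-123411552 on the plus strand, Rac3 at chr11:120721218-120721467 on the plus strand and Tubb2a at chr13:34078009-34078258 on the minus strand.
Rnd3: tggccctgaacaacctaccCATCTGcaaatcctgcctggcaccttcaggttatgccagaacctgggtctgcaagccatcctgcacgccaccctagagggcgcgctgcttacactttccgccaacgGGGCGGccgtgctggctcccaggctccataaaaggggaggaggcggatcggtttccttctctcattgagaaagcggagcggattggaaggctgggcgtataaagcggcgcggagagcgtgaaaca
Tubb3: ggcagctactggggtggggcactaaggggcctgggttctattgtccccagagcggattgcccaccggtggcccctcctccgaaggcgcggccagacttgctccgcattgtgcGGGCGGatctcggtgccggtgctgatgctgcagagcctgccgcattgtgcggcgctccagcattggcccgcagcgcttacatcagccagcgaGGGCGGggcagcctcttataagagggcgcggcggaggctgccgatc
Rac3: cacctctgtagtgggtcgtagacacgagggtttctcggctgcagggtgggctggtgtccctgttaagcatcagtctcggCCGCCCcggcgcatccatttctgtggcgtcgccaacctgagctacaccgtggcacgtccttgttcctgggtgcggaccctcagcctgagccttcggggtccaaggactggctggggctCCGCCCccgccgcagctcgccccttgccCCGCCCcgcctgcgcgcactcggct
Tubb2a: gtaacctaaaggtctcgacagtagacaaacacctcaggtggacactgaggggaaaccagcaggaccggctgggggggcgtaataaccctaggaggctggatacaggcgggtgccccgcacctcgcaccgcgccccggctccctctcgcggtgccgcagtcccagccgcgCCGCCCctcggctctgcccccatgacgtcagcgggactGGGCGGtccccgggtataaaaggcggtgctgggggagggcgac
The Rnd3 window held 1 E-box, 231 bases before the start, and 1 GC box, while the windows of Tubb3, Rac3 and Tubb2a held no E-box of these letters and 2, 3 and 2 GC boxes. The E-box was present in 14.4% of all 32851 promoter windows of this length and in 8 of the 40 windows of the migration genes, the GC box in 32.7% and in 18 of 40. A match of letters describes the window and does not show that a factor binds there.

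Age changed part of the set, and in both genotypes the rising and falling members came from several of its roles. From E14.5 to E18.5 in control cells, 5 of 37 members passed, where 11% of all genes did: Dab1, Stmn4 and Mapt rose (6.06% of all genes rose) and Rnd2 and Rnd3 fell (4.93% of all genes fell). From E18.5 to P2 in control cells 3 passed against 19.7% of all genes, with Marcks and Rhoa higher (9.96%) and Dcx lower (9.75%). Over the whole span from E14.5 to P2, 9 passed in control cells against 39.2% of all genes, with 6 higher (18%) and 3 lower (21.2%). The median difference over the span was 0.04 for the 37 members and -0.04 for all genes, and the median size of the difference, sign aside, was 0.19 against 0.31.

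The Htr3a-KO cells gave 3 members past the threshold from E14.5 to E18.5, where 15.1% of all genes passed: Mapt and Tubb2a rose (6.26% of all genes rose) and Rnd2 fell (8.88%). From E18.5 to P2 there were 7 against 28.5% of all genes, with Dclk1 and Rhoa higher (13.5%) and Dcx, Cdk5r1, Lrp8, Rnd3 and Tubb3 lower (15%). Over the whole span 14 passed against 41.5% of all genes, 7 higher (15.6%) and 7 lower (26%), with a median difference of 0.04 for members and -0.07 for all genes. The median size of the difference was 0.26 against 0.32. Over the span from E14.5 to P2, 18 of 37 members did not overlap between ages in each genotype, against 48.5% of all genes in control and 48.8% in Htr3a-KO cells. For single steps that share is given only from E18.5 to P2 in Htr3a-KO cells (47.4%). Separation of arrays described below for other steps is thus not shown to be particular to a member. Within a genotype these comparisons share arrays, so a member that passed in a step and over the span was not measured independently in each. Gap43, Mapt, Rac3, Rhoa and Tubb2a rose and Rnd2, Rnd3 and Tubb3 fell over the span in both genotypes. These are 8 of the 9 calls in control and 8 of the 14 in Htr3a-KO cells. The share of all genes that passed in both genotypes was not computed, so this overlap is not shown to be particular to the set.

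**Figure D1:**
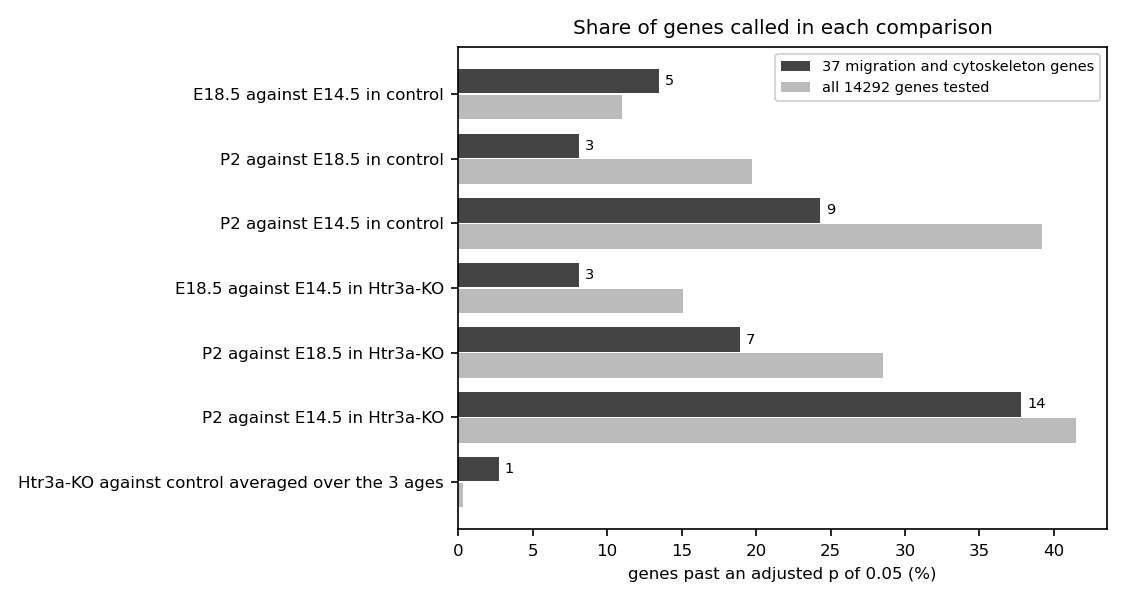
Bars give the percentage of genes past an adjusted p of 0.05 in each age comparison and in the Htr3a-KO against control comparison averaged over the 3 ages, dark for the 37 migration and cytoskeleton genes (number called beside the bar) and grey for all 14292 genes. The dark bar is shorter than the grey in 5 of the 6 age comparisons and longer from E14.5 to E18.5 in control cells.

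**Figure D2:**
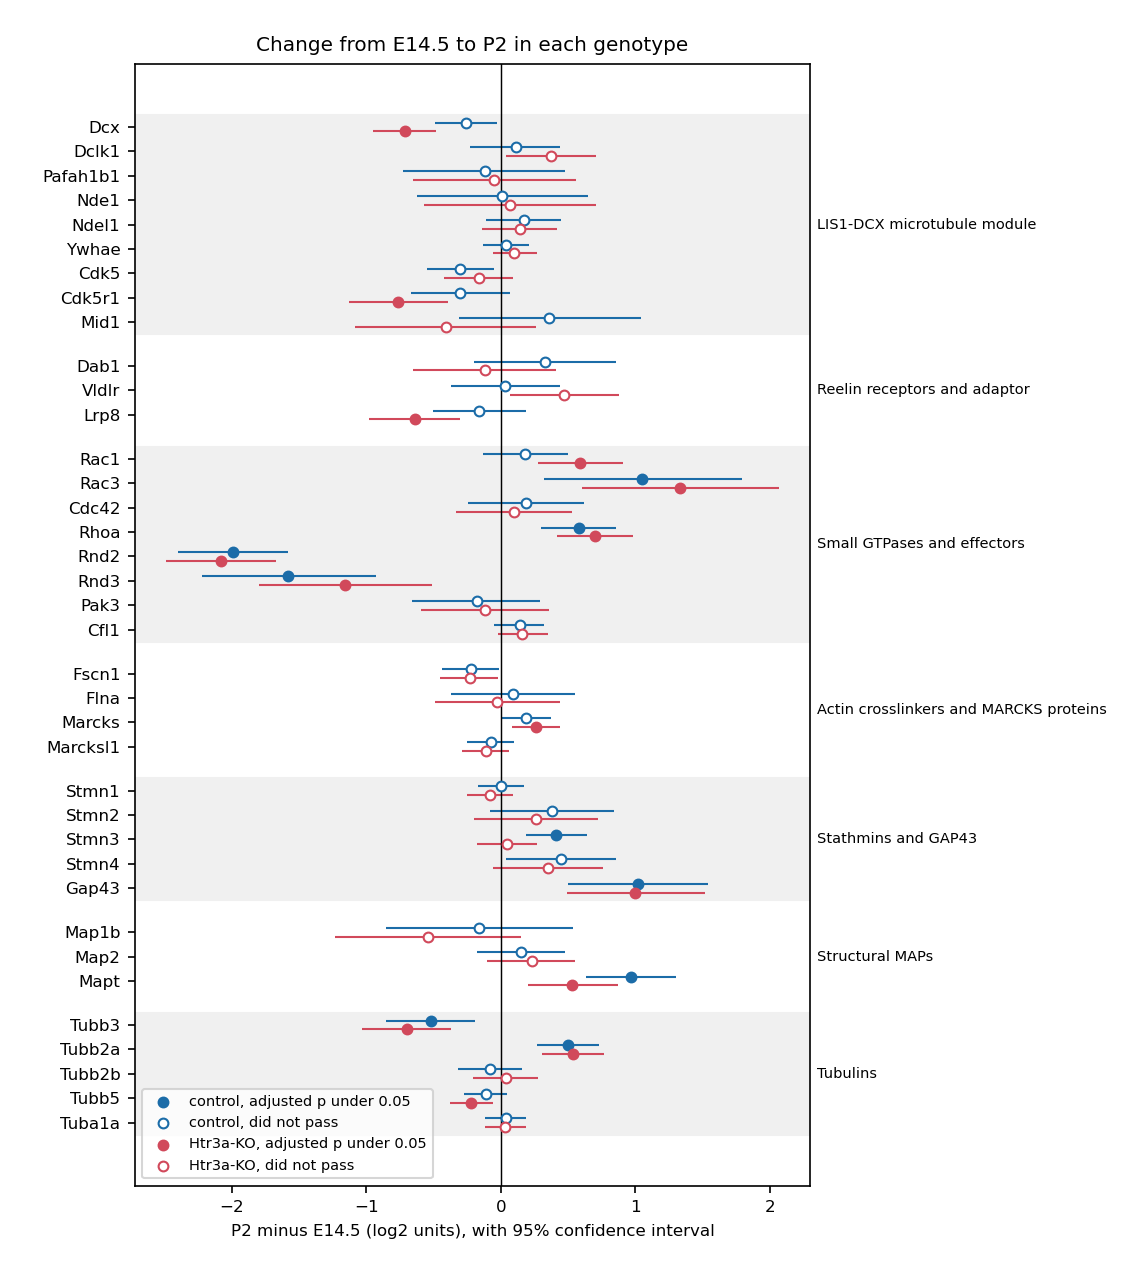
Points give the P2 minus E14.5 difference in log2 units for each of the 37 genes, grouped by role, with control in blue and Htr3a-KO in red, filled where the adjusted p was under 0.05; bars are 95% confidence intervals from the fit. Rnd2 and Rnd3 lie farthest to the left (-1.99 and -1.58 in control) and Rac3 and Gap43 farthest to the right (1.05 and 1.02 in control).

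Other cell types' markers also moved with age. Among general GABAergic interneuron markers, 4 of 7 fell over the span in each genotype, and of 8 CGE markers 4 rose and 1 fell in control cells and 2 rose in Htr3a-KO cells. Excitatory neuron markers fell over the span for 8 of 9 genes in each genotype. Their list mean per array was 9.88 to 10.57 at E14.5 and 8.20 to 8.34 at P2 in control cells. In Htr3a-KO cells it was 10.01 to 10.48 and 7.07 to 8.10. Slc17a7, a vesicular glutamate transporter gene, stayed near the filter level in every group (5.21 to 5.57). Slc17a6, another such gene, was bright. It averaged 10.57 in control and 10.59 in Htr3a-KO cells at E14.5, and 9.25 and 8.50 at P2. Striatal neuron markers fell for 4 of 7 genes in control cells (list mean 8.88 to 11.09 at E14.5, 7.65 to 7.82 at P2) and for 3 of 7 in Htr3a-KO cells (8.16 to 9.64, then 7.33 to 7.63). Astrocyte markers rose for 8 of 9 genes in each genotype, from list means of 6.86 to 7.59 to 10.20 to 10.97 in control cells and from 7.41 to 7.74 to 10.62 to 11.27 in Htr3a-KO cells. Aqp4, an astrocyte water channel, was below the filter level at E14.5 (3.72 in control and 3.95 in Htr3a-KO cells) and averaged 10.64 and 11.25 at P2. Oligodendrocyte lineage markers rose for 7 of 7 genes in each genotype, from 6.48 to 6.64 to 10.65 to 11.01 in control cells and from 6.38 to 6.82 to 10.81 to 11.34 in Htr3a-KO cells. Microglial markers rose for 6 of 9 genes in control cells, and in Htr3a-KO cells 0 of 9 rose and 1 fell. The part of these cell types in each age difference given below was not tested. As a sign of RNA quality, the 3′ minus 5′ signal (log2) of the actin control probe sets was 0.57 to 0.76 at E14.5 and 0.90 to 1.22 at P2 in control arrays, without overlap, and 0.65 to 0.94 and 0.75 to 0.92 in Htr3a-KO arrays, with overlap. At E18.5 it was 0.59 to 1.04 in control and 0.89 to 1.18 in Htr3a-KO arrays, with overlap. The Gapdh control probe sets gave 1.63 to 1.99 at E14.5 and 1.77 to 2.20 at P2 in control arrays, with overlap. In Htr3a-KO arrays they gave 1.55 to 1.98 and 1.87 to 2.03, also with overlap. At E18.5 they gave 1.64 to 1.84 in control and 1.79 to 2.12 in Htr3a-KO arrays, again overlapping. The part of RNA quality in the age and genotype differences was not tested.

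Among the small GTPases, Rnd2 and Rnd3 fell and Rac3 and Rhoa rose over the span in both genotypes, and Rac1 rose in Htr3a-KO cells; Cdc42, Pak3 and Cfl1 did not pass in any age comparison. Rnd2, an atypical GTPase that stays bound to GTP and acts in the radial migration of cortical neurons, read 11.71, 11.76 and 12.13 in the control arrays of E14.5, 10.35, 10.68 and 10.18 in those of E18.5 and 9.95, 10.16 and 9.52 in those of P2. In Htr3a-KO arrays it read 11.82, 11.82 and 12.07, then 10.20, 9.83 and 10.54, then 9.86, 9.84 and 9.77. All 6 arrays of E14.5 were above all 12 later ones. The drop came mainly with the first step, by 1.46 ± 0.19 (SE) in control (2.76-fold, adjusted p 0.000226) and by 1.71 ± 0.19 in Htr3a-KO cells (3.28-fold, adjusted p 8.04e-05). Over the whole span Rnd2 decreased by 1.99 (adjusted p 1.76e-06) and by 2.08 (adjusted p 1.04e-06).

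Rnd3, a related GTPase that opposes RhoA signalling, read 11.60, 11.58 and 11.00 in the control arrays of E14.5, 10.09, 10.42 and 10 in those of E18.5 and 9.30, 10.37 and 9.78 in those of P2. Its Htr3a-KO arrays read 10.37, 10.19 and 10.82, then 10.08, 10.02 and 10.91, then 8.91, 9.20 and 9.80. Control cells were therefore higher at E14.5 than at either later age, whereas in Htr3a-KO cells E14.5 and E18.5 overlapped and P2 was lowest. In control cells Rnd3 decreased by 1.22 ± 0.30 to E18.5 (adjusted p 0.0169) and by 1.58 ± 0.30 over the span (2.98-fold, adjusted p 0.000776). In Htr3a-KO cells it decreased by 1.03 ± 0.30 from E18.5 to P2 (adjusted p 0.0195) and by 1.16 ± 0.30 over the span (adjusted p 0.00619). Its second probe set gave span differences of -2.06 and -1.34. The control step to E18.5 no longer passed without array 1 or 2 of the E14.5 controls or array 1 or 3 of the E18.5 controls (adjusted p 0.0569 to 0.0687), nor the Htr3a-KO step to P2 without E18.5 Htr3a-KO array 3 or P2 Htr3a-KO array 1 or 2 (adjusted p 0.0539 to 0.0962).

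Rac3, the neuronal Rac GTPase that promotes membrane protrusion, rose from 8.65, 9.07 and 8.96 in E14.5 control arrays to 9.31, 10.45 and 10.08 at P2, with 10.03, 8.98 and 10.12 at E18.5. The Htr3a-KO arrays went from 8.97, 8.07 and 8.87 through 10.18, 9.73 and 9.14 to 10, 9.79 and 10.12. The P2 arrays lay above the E14.5 arrays of their genotype, while 1 E18.5 control array, at 8.98, lay among those of E14.5. The span difference was 1.05 ± 0.34 in control (2.08-fold, adjusted p 0.0239) and 1.33 ± 0.34 in Htr3a-KO cells (2.52-fold, adjusted p 0.0058). The control call did not hold without E14.5 control array 1 or P2 control array 2 or 3 (adjusted p 0.0707 to 0.107).

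Rhoa, which drives actomyosin contraction through its kinase effectors, changed between E18.5 and P2. Control arrays of E14.5 read 10.15, 10.28 and 10.37, those of E18.5 read 10.03, 10.34 and 10.43 and those of P2 read 10.71, 11.11 and 10.73, and Htr3a-KO arrays 10.41, 10.13 and 10.48, then 10.44, 10.40 and 10.50, then 11.14, 11.03 and 10.94. All 6 P2 arrays lay above the 12 earlier ones. The second step was 0.58 ± 0.13 in control (1.5-fold, adjusted p 0.00649) and 0.59 ± 0.13 in Htr3a-KO cells (1.51-fold, adjusted p 0.00456). Fitted on the arrays of that step alone, the control value no longer passed (adjusted p 0.0605).

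Rac1, the Rac GTPase found in all cells, read 12.04, 12.21 and 12.32 in E14.5, 12.49, 12.50 and 12.52 in E18.5 and 12.55, 12.14 and 12.43 in P2 control arrays. In Htr3a-KO arrays it read 12.24, 11.74 and 11.86, then 12.61, 12.27 and 12.20, then 12.38, 12.62 and 12.62. The lowest values were on 2 of the E14.5 Htr3a-KO arrays. The span difference was 0.59 ± 0.15 in Htr3a-KO cells (adjusted p 0.0043) and 0.18 ± 0.15 in control cells (adjusted p 0.348), and the difference between these, 0.41 (95% interval -0.03 to 0.85), did not pass (adjusted p 0.803). Another Rac1 probe set above the filter gave -0.22 in Htr3a-KO cells, so the rise rests on 1 probe set. Averaged over its probe sets the difference was 0.18 (adjusted p 0.166).

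**Figure D3:**
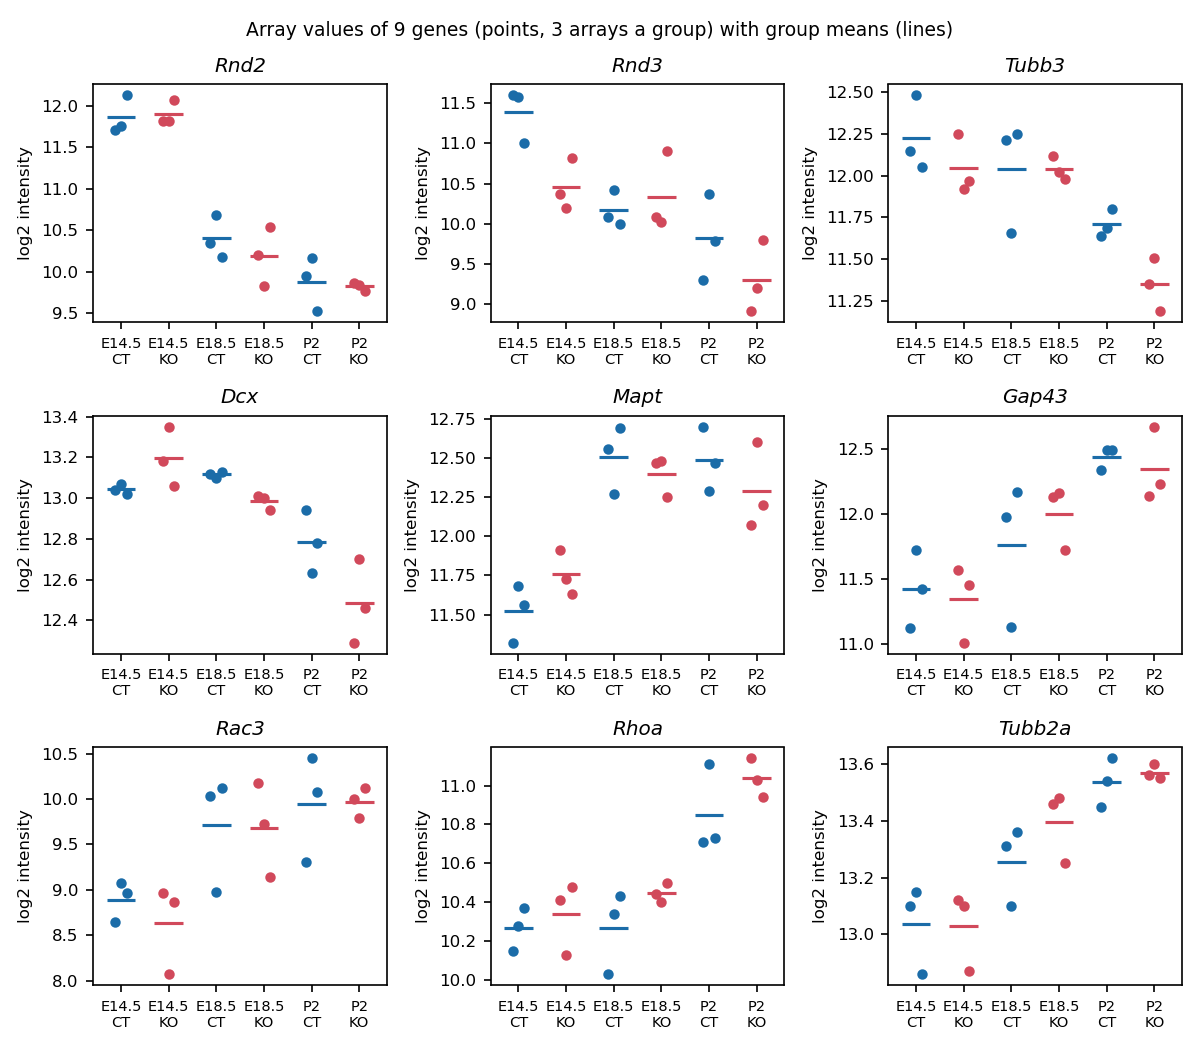
Log2 intensity of 9 genes on each array (points) with group means (lines), control (CT) in blue and Htr3a-KO (KO) in red at E14.5, E18.5 and P2; each panel has its own vertical scale. Rnd2 is high on all 6 E14.5 arrays, and Rhoa is high on all 6 P2 arrays.

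In the LIS1 and doublecortin module, 0 of 9 members passed over the span in control cells (limma), against 39.2% of all genes. Mid1 was counted among the 9. Dcx and Cdk5 had unadjusted p under 0.05 in control cells. In Htr3a-KO cells Dcx and Cdk5r1 fell, where 26% of all genes fell. Dcx read 13.04, 13.07 and 13.02 in the control arrays of E14.5, 13.12, 13.10 and 13.13 in those of E18.5 and 12.94, 12.63 and 12.78 in those of P2. The Htr3a-KO arrays read 13.18, 13.35 and 13.06, then 13.01, 13.00 and 12.94, then 12.29, 12.70 and 12.46. In both genotypes the P2 arrays were below the earlier ones. From E18.5 to P2 Dcx decreased by 0.33 ± 0.11 in control (1.26-fold, adjusted p 0.0434) and by 0.50 ± 0.11 in Htr3a-KO cells (1.41-fold, adjusted p 0.00399), and over the span by 0.26 (adjusted p 0.072) and by 0.71 (1.64-fold, adjusted p 0.000113). The control step lost its call on dropping any of the 3 arrays of E18.5 or array 2 or 3 of P2 (adjusted p 0.0869 to 0.173). It was also lost when only the arrays compared were fitted (adjusted p 0.117) and without the arrays whose sex-linked transcripts stood apart (adjusted p 0.0796), the latter an alternative added after the data were seen. The most variable Dcx probe set gave larger differences, -0.98 for the control step and -1.44 for the Htr3a-KO span.

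Cdk5r1 encodes p35, the activator of CDK5 in neurons. It read 11.76, 11.92 and 11.72, then 11.82, 12.08 and 11.97, then 11.96, 11.33 and 11.22 in control arrays at the 3 ages, and 11.93, 11.80 and 11.73, then 11.95, 11.52 and 11.52, then 10.93, 10.95 and 11.30 in Htr3a-KO arrays. The P2 Htr3a-KO arrays lay below all earlier arrays, and 1 P2 control array, at 11.96, did not. Cdk5r1 decreased by 0.76 ± 0.17 over the span in Htr3a-KO cells (1.69-fold, adjusted p 0.00258) and by 0.60 from E18.5 to P2 (adjusted p 0.0183), the latter not without E18.5 Htr3a-KO array 1 or P2 Htr3a-KO array 1 or 2 (adjusted p 0.0588 to 0.0933). Of its 3 other probe sets, 2 gave the same direction over the span (-0.63 to 0.02). The one with the largest variance gave -0.57 (adjusted p 0.093).

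Dclk1, a doublecortin-like kinase, rose by 0.45 ± 0.16 from E18.5 to P2 in Htr3a-KO cells (adjusted p 0.0462), from 11.60, 11.64 and 11.37 to 12.06, 11.81 and 12.08. These 2 groups did not overlap, and 47.4% of all genes did not overlap between them either. The call depended on nearly every array, since it was lost in 5 of 6 fits that left 1 out (all but P2 Htr3a-KO array 2, adjusted p 0.0622 to 0.155), and 4 of its 7 other probe sets shared the sign. The control difference was 0.46 (adjusted p 0.0546). Pafah1b1, which encodes LIS1, its dynein partners Nde1 and Ndel1, the 14-3-3 protein gene Ywhae, Cdk5 and Mid1 did not pass in any age comparison. Across these 6 genes the span differences ran from -0.41 to 0.36.

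Of the Reelin receptors and their adaptor, Dab1 rose to E18.5 in control cells, Lrp8 fell in Htr3a-KO cells and Vldlr passed in no comparison. Dab1, the cytoplasmic adaptor phosphorylated once Reelin binds the receptors, was highest at E18.5: control arrays read 9.18, 9.54 and 10.40, then 10.87, 10.69 and 10.50, then 10.37, 9.86 and 9.89. Htr3a-KO arrays read 10.22, 9.92 and 10.02, then 10.74, 10.57 and 10.25, then 9.60, 10.10 and 10.09. In each genotype the E18.5 arrays lay above those of both other ages. The share of all genes with that pattern is not given. The rise to E18.5 was 0.98 ± 0.25 in control (1.97-fold, adjusted p 0.0197), shared by 4 of 4 other Dab1 probe sets, and the difference was 0.47 in Htr3a-KO cells (adjusted p 0.211). The later differences of -0.65 and -0.59 did not pass (adjusted p 0.0812 and 0.0886). Without array 1 or 2 of the E14.5 controls or array 1 of the E18.5 controls the rise no longer passed (adjusted p 0.0739 to 0.0985). Nor did it pass without the arrays with unlike sex-linked transcripts (adjusted p 0.0549) or when only the arrays compared were fitted (adjusted p 0.089).

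Lrp8, which encodes the Reelin receptor ApoER2, fell in Htr3a-KO cells from 10.28, 10.14 and 10.54 at E18.5 to 8.98, 9.72 and 9.57 at P2, after 9.89, 10.15 and 10.15 at E14.5. Control arrays read 9.89, 9.79 and 9.90, then 10.06, 10.13 and 9.93, then 9.74, 9.53 and 9.84. The P2 arrays were the lowest of the 3 ages except that 1 control array, at 9.84, lay among those of E14.5. Lrp8 decreased by 0.90 ± 0.16 from E18.5 to P2 in Htr3a-KO cells (1.86-fold, adjusted p 0.00115), with 2 other probe sets at -0.41 and 0.32 and an average over probe sets of -0.33 (adjusted p 0.0239), and differed by -0.34 in control cells (adjusted p 0.162). The difference between these steps, -0.56 (95% interval -1.05 to -0.07), did not pass (adjusted p 0.686). Over the span Lrp8 decreased by 0.64 in Htr3a-KO cells (adjusted p 0.00507), and by 0.42 without P2 Htr3a-KO array 1 (adjusted p 0.023). Vldlr, the second receptor, did not pass in any comparison and differed by 0.03 in control and 0.47 in Htr3a-KO cells over the span.

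Stathmins bind free tubulin and promote microtubule turnover. Among them and the growth cone protein gene Gap43, 2 of 5 rose over the span in control and 1 in Htr3a-KO cells (limma). Of all genes 18% and 15.6% rose. In each genotype 0 of the 5 fell, where 21.2% and 26% of all genes fell, and no falling member met an unadjusted p under 0.05. With 5 members these counts are no result about the role. Gap43 read 11.12, 11.72 and 11.42 in the control arrays of E14.5, 11.98, 11.13 and 12.17 in those of E18.5 and 12.34, 12.49 and 12.49 in those of P2. The Htr3a-KO arrays read 11.57, 11.01 and 11.45, then 12.13, 12.16 and 11.72, then 12.14, 12.67 and 12.23. The P2 arrays were above the E14.5 arrays in both genotypes, while at E18.5 1 control array, at 11.13, lay among those of E14.5 and 1 Htr3a-KO array, at 12.16, among those of P2. Gap43 rose by 1.02 ± 0.24 in control (2.03-fold, adjusted p 0.00366) and by 1.0 ± 0.24 in Htr3a-KO cells (adjusted p 0.00368).

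Stmn3 read 12.60, 12.74 and 12.45, then 12.90, 12.79 and 12.86, then 13.02, 12.97 and 13.04 in control arrays. In Htr3a-KO arrays it read 12.54, 12.63 and 12.66, then 12.87, 12.95 and 12.74, then 12.57, 12.88 and 12.52. Control arrays of the 3 ages did not overlap, while the P2 Htr3a-KO arrays lay partly among those of E14.5. The span difference was 0.41 ± 0.11 in control (1.33-fold, adjusted p 0.00567) and 0.05 in Htr3a-KO cells. Their difference of -0.37 (95% interval -0.68 to -0.05) did not pass (adjusted p 0.765).

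Stmn4 rose to E18.5 in control cells, from 11.67, 11.74 and 11.42 to 12.13, 12.35 and 12.34, a difference of 0.66 ± 0.19 (adjusted p 0.038). The call was lost without any 1 of the 6 arrays of the step (adjusted p 0.0603 to 0.127) and without the arrays with unlike sex-linked transcripts (adjusted p 0.0875). Stmn1 read 14.10, 14.08 and 14, then 14.11, 14.16 and 14.15, then 14.11, 13.98 and 14.08 in control arrays and 14.08, 14.10 and 14.03, then 14.14, 14.13 and 14.05, then 13.85, 14.06 and 14.05 in Htr3a-KO arrays. These values lie within 0.26 of the brightest probe set of their array (14.07 to 14.22), a range in which the array can show little further rise. Stmn2 did not pass in any comparison.

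Mapt was the structural MAP that changed; it encodes tau, which binds axonal microtubules. It read 11.32, 11.68 and 11.56 in the control arrays of E14.5, 12.56, 12.27 and 12.69 in those of E18.5 and 12.70, 12.29 and 12.47 in those of P2, and 11.91, 11.73 and 11.63, then 12.47, 12.48 and 12.25, then 12.07, 12.60 and 12.20 in Htr3a-KO arrays. The E14.5 arrays were below all later arrays in both genotypes. The rise came with the first step, 0.99 ± 0.16 in control (1.98-fold, adjusted p 0.00102) and 0.64 ± 0.16 in Htr3a-KO cells (1.56-fold, adjusted p 0.014), and 3 of 3 other probe sets had the same sign in each genotype. Over the span the differences were 0.97 (adjusted p 0.000197) and 0.53 (adjusted p 0.0125). The Htr3a-KO step lost its call without E18.5 Htr3a-KO array 1 or 2 (adjusted p 0.0555 to 0.0601), and the Htr3a-KO span without P2 Htr3a-KO array 2 (0.38, adjusted p 0.0749). With its most variable probe set the control span (0.79, adjusted p 0.112), the Htr3a-KO step (0.84, adjusted p 0.136) and the Htr3a-KO span (0.56, adjusted p 0.264) did not pass.

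Map2, the dendritic MAP, read 11.71, 11.85 and 11.84, then 12, 12.01 and 12.10, then 11.87, 11.91 and 12.07 in control arrays and 11.95, 11.71 and 11.75, then 12.46, 12.19 and 12.06, then 11.60, 12.34 and 12.15 in Htr3a-KO arrays. Values at E18.5 were above those at E14.5 in both genotypes, by 0.24 (adjusted p 0.371) and 0.43 (adjusted p 0.0687), and neither passed. Map1b, which acts on growing axons, did not pass either; 1 E18.5 control array read 10.35 where the other two read 11.94 and 11.84.

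Of the 5 tubulins measured, Tubb3 fell and Tubb2a rose over the span in both genotypes, Tubb5 fell in Htr3a-KO cells, and Tubb2b and Tuba1a passed in no comparison. Tubb3, the neuronal beta tubulin, read 12.15, 12.48 and 12.05 in the control arrays of E14.5, 12.21, 11.66 and 12.25 in those of E18.5 and 11.64, 11.69 and 11.80 in those of P2. Htr3a-KO arrays read 12.25, 11.92 and 11.97, then 12.12, 12.02 and 11.98, then 11.35, 11.51 and 11.19. The P2 arrays lay below the E14.5 arrays in both genotypes. Tubb3 decreased by 0.52 ± 0.15 in control (1.43-fold, adjusted p 0.015) and by 0.70 ± 0.15 in Htr3a-KO cells (1.62-fold, adjusted p 0.00205), in the latter mostly after E18.5 (by 0.69, adjusted p 0.00455). Without E14.5 control array 2 the control difference was -0.39 and did not pass (adjusted p 0.0814).

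Tubb2a read 13.10, 13.15 and 12.86 in the control arrays of E14.5, 13.31, 13.10 and 13.36 in those of E18.5 and 13.45, 13.54 and 13.62 in those of P2. In Htr3a-KO arrays it read 13.12, 13.10 and 12.87, then 13.46, 13.48 and 13.25, then 13.56, 13.60 and 13.55. The P2 arrays lay above all earlier arrays in both genotypes. Its rise over the span was 0.50 ± 0.11 in control (1.41-fold, adjusted p 0.00191) and 0.54 ± 0.11 in Htr3a-KO cells (1.45-fold, adjusted p 0.000965), while a dimmer second probe set gave 0.21 and -0.45. Averaged over both probe sets the Htr3a-KO span difference was 0.04 (adjusted p 0.792). The Htr3a-KO step to E18.5, 0.37 (adjusted p 0.0338), did not hold without E14.5 Htr3a-KO array 1 or 3 or E18.5 Htr3a-KO array 1 or 2 (adjusted p 0.0513 to 0.126), and the second probe set gave -0.21 there. Tubulin isotypes are near-identical in sequence, so probes of one can take up signal of another.

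Tubb5 decreased by 0.22 ± 0.08 over the span in Htr3a-KO cells (adjusted p 0.0258), with E14.5 arrays at 13.80, 13.87 and 13.82 and P2 arrays at 13.63, 13.64 and 13.55. That call was lost without E14.5 Htr3a-KO array 2 or P2 Htr3a-KO array 3 (adjusted p 0.0792 to 0.0876), and when both arrays with unlike sex-linked transcripts were left out (adjusted p 0.0839). It was lost too with quantile normalization (adjusted p 0.065) and when only the arrays compared were fitted (adjusted p 0.125), while a second Tubb5 probe set gave -0.90. Tuba1a, the main alpha tubulin of young neurons, read 14.04, 14.04 and 13.91, then 14.03, 14.04 and 14.04, then 14.04, 14.02 and 14.04 in control arrays and 14.04, 14.08 and 13.95, then 14.08, 14.04 and 13.96, then 14.04, 14.04 and 14.09 in Htr3a-KO arrays. It sat, as Stmn1 did, within 0.26 of the brightest probe set on every array.

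The actin crosslinkers differed little. Fscn1, which bundles filopodial actin, Flna, which crosslinks actin networks, and Marcksl1 did not pass in any age comparison, with span differences between -0.23 and 0.09. Marcks, a membrane-bound actin-binding substrate of protein kinase C, read 12.92, 12.94 and 12.69 in the control arrays of E14.5, 12.72, 12.83 and 12.78 in those of E18.5 and 12.97, 13.08 and 13.08 in those of P2. In Htr3a-KO arrays it read 12.79, 12.89 and 12.83, then 12.96, 12.94 and 12.92, then 13.06, 13.06 and 13.17. P2 was highest in both genotypes. The differences that passed were small, 0.27 ± 0.08 from E18.5 to P2 in control (adjusted p 0.037) and 0.26 ± 0.08 over the span in Htr3a-KO cells (adjusted p 0.0217). The control call was lost on dropping any of the 3 arrays of E18.5 or array 2 or 3 of P2 (adjusted p 0.054 to 0.124), the Htr3a-KO call without E14.5 Htr3a-KO array 1 or P2 Htr3a-KO array 3 (adjusted p 0.071 to 0.0807), and 1 of the 6 other Marcks probe sets gave -0.53 and -0.89. Both calls were also lost with median centring (adjusted p 0.0811 and 0.072) and when only the arrays compared were fitted (adjusted p 0.152 and 0.0883).

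Loss of Htr3a left nearly all of the set without a detectable difference. At E14.5, 0 of 37 members passed in limma, with 2 at an unadjusted p under 0.05, where 0.014% of all genes passed. At E18.5 it was 0 with 2 unadjusted (0.021% of all genes passed) and at P2 0 with 5 unadjusted (0.035%). Averaged over the 3 ages, 1 member passed, Mid1, which was lower in Htr3a-KO cells, against 0.294% of all genes in either direction and 0.133% lower. The members were chosen with earlier results of these data known, so this 1 call is no result about the set. Arrays of both genotypes did not overlap for 2 members at E14.5, 5 at E18.5 and 4 at P2, against 9.01%, 20.7% and 9.14% of all genes. The median difference of the 37 members was 0.00, 0.00 and -0.06 at the 3 ages, against 0.01, -0.06 and -0.04 over all genes.

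**Figure D4:**
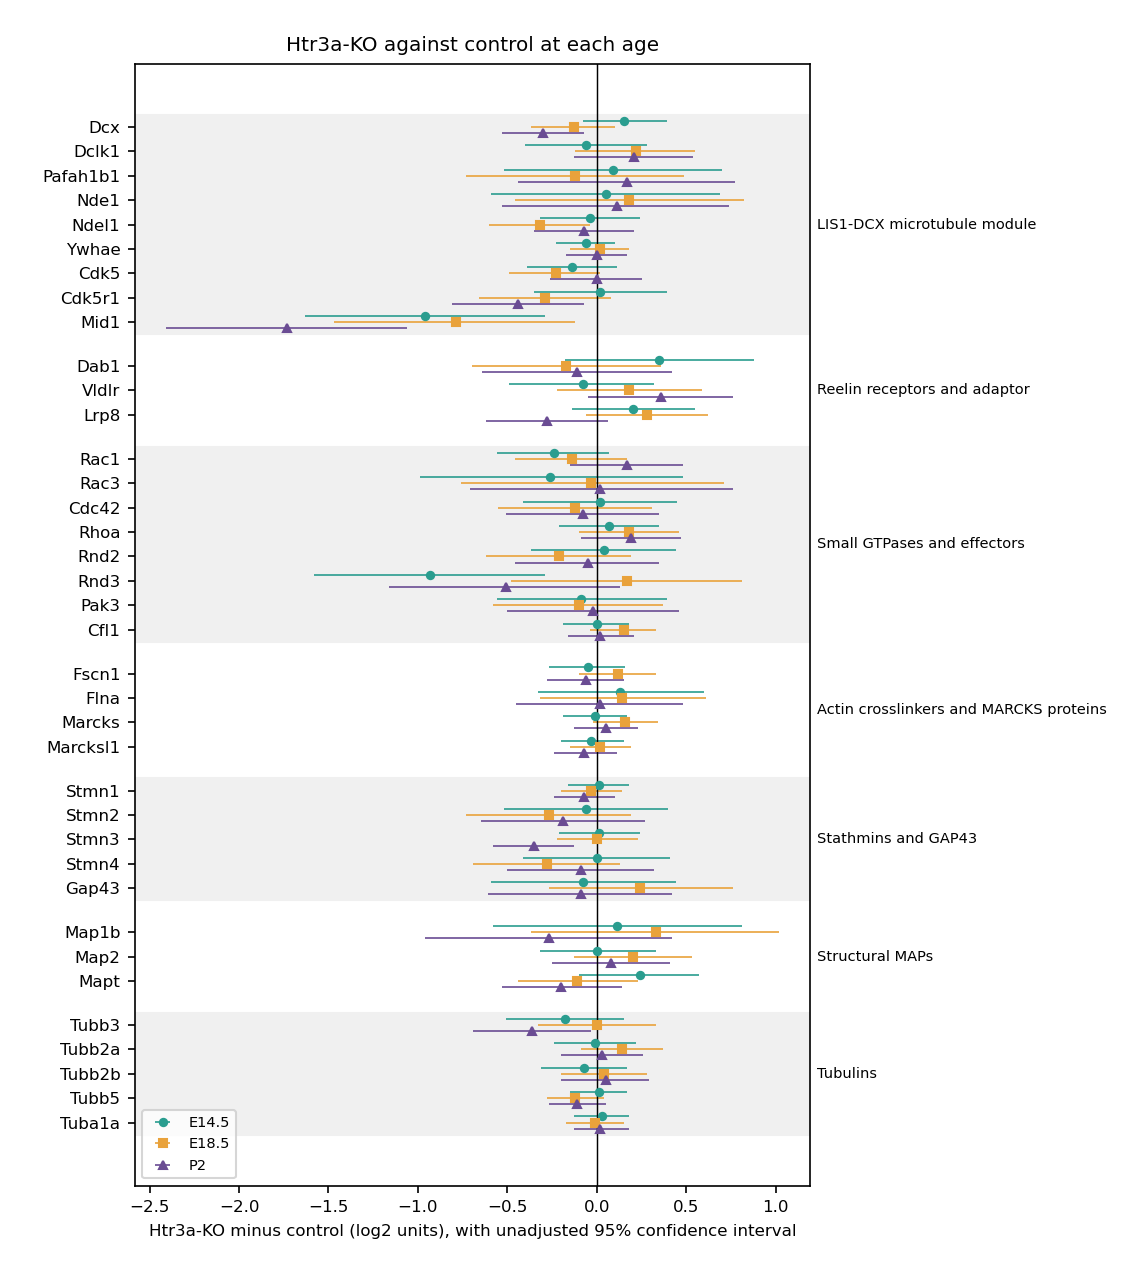
Points give the Htr3a-KO minus control difference in log2 units for each of the 37 genes at E14.5 (green circles), E18.5 (orange squares) and P2 (purple triangles), with unadjusted 95% confidence intervals and genes grouped by role. Mid1 lies to the left at each age (-0.96, -0.79 and -1.73), where the E18.5 value was -0.35 without control array 3.

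Mid1 encodes a microtubule-bound ubiquitin ligase of the tripartite motif family, which controls the turnover of a phosphatase subunit. The gene lies on the X chromosome. Control arrays of E14.5 read 9.32, 8.75 and 8.82, those of E18.5 read 8.65, 8.49 and 9.90 and those of P2 read 9.08, 9.36 and 9.54. Htr3a-KO arrays read 7.77, 7.74 and 8.50, then 8.18, 7.85 and 8.63, then 7.79, 7.44 and 7.55. The genotypes were separate at E14.5 and P2 and overlapped at E18.5, where 1 Htr3a-KO array at 8.63 lay above 1 control array at 8.49. The difference was -0.96 ± 0.32 at E14.5 (adjusted p 0.7), -0.79 ± 0.32 at E18.5 (adjusted p 0.334) and -1.73 ± 0.32 at P2 (adjusted p 0.119), none of which passed alone. At E18.5 the value was -0.35 (adjusted p 0.543) without control array 3, which read 9.90, and -0.95 with array weights, where it passed (adjusted p 0.0382). Averaged over the ages, Mid1 decreased by 1.16 ± 0.18 (2.24-fold, 95% interval -1.55 to -0.77, adjusted p 0.013). The average stayed between -1.27 and -1.01 and passed in all 30 alternatives run (adjusted p 0.00135 to 0.039). Mid1 had 1 probe set above the filter, so the alternatives on the filter and on the choice of probe set could not change its difference.

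The 2 other Mid1 probe sets lay under the filter level of 5.255, at mean levels of 4.35 and 3.46, and gave average differences of -0.18 (adjusted p 0.308) and 0.01 (adjusted p 0.96), so the Mid1 value rests on 1 probe set. Because Mid1 lies on the X chromosome, sex-linked transcripts are given beside it. Averaged over the ages, Xist differed by -0.36 (adjusted p 0.8), Eif2s3y by 0.75 (adjusted p 0.608), Kdm5d by 0.93 (adjusted p 0.543) and Uty by 0.44 (adjusted p 0.602). Without the 2 arrays whose sex-linked transcripts stood apart, Mid1 averaged -1.21 (adjusted p 0.0182). The part of sex in the Mid1 difference was not otherwise tested.

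**Figure D5:**
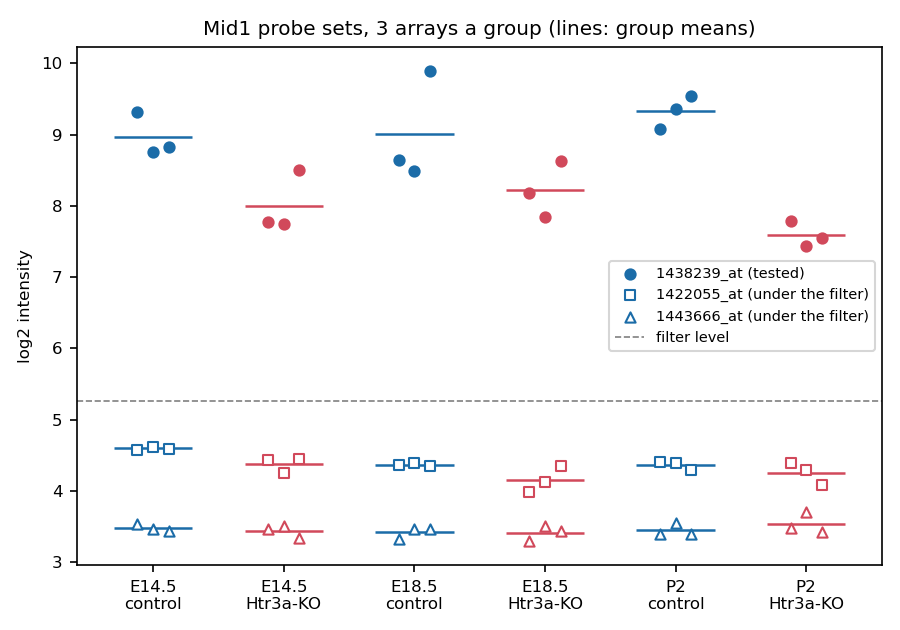
Log2 intensity of the 3 Mid1 probe sets on each array, control in blue and Htr3a-KO in red, with lines at group means and a dashed line at the filter level of 5.255. On the tested probe set (filled circles) the P2 control arrays lie at 9.08 to 9.54 and the P2 Htr3a-KO arrays at 7.44 to 7.79, and the 2 other probe sets (open squares and triangles) lie under the filter.

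At each single age no member passed, Mid1 included. The members with the smallest p besides Mid1 are given here. At E14.5 these were Rnd3, whose 3 Htr3a-KO arrays (10.19 to 10.82) lay below its 3 control arrays (11.00 to 11.60), a difference of -0.93 ± 0.30 (95% interval -1.58 to -0.29, adjusted p 0.685), and Rac1 at -0.24 (adjusted p 0.924). For striatal markers the list mean in the same groups overlapped, at 8.88 to 11.09 in control and 8.16 to 9.64 in Htr3a-KO arrays, with a median difference of -1.12 and 0 of 7 past the threshold. The striatal factor Isl1 read 11.97, 12.25 and 8.95 in control and 6.21, 9.34 and 10.38 in Htr3a-KO arrays. Endothelial and mural markers did not overlap between these groups (0 of 7 passed). Their list means were 5.76 to 6.60 in control and 6.63 to 7.93 in Htr3a-KO arrays. Markers of medial ganglionic eminence interneurons did not overlap either (9.35 to 9.49 and 9.64 to 9.80, 0 of 5 passed). Nor did meningeal markers (7.06 to 7.27 and 7.39 to 7.70, 0 of 4 passed). The part of these cells in the Rnd3 difference was not tested.

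At E18.5 the smallest p after Mid1 were those of Ndel1 and Cdk5. Ndel1, the LIS1 and dynein partner, read 11.48, 11.02 and 11.29 in control and 11.02, 11.06 and 10.76 in Htr3a-KO arrays (-0.32, adjusted p 0.34), and its second probe set gave 0.54. Cdk5 read 9.65, 9.51 and 9.72 against 9.48, 9.47 and 9.23 (-0.23, adjusted p 0.432). At P2 they were Stmn3 (-0.35 ± 0.11, 95% interval -0.58 to -0.13, adjusted p 0.53), whose Htr3a-KO arrays (12.52 to 12.88) were below the control arrays (12.97 to 13.04), and Dcx (-0.30 ± 0.11, 95% interval -0.53 to -0.07, adjusted p 0.604), whose arrays overlapped and whose most variable probe set gave 0.04. At E18.5, list means did not overlap between genotypes for astrocyte markers (6.95 to 7.97 in control, 8.10 to 8.38 in Htr3a-KO, 0 of 9 passed). The same held for oligodendrocyte lineage markers (8.52 to 9.44 and 9.55 to 9.86, 0 of 7 passed). It also held for CGE markers, a list that includes Htr3a (8.36 to 8.94 and 7.91 to 8.33, 1 of 8 passed). At P2 there was no overlap for excitatory markers (8.20 to 8.34 and 7.07 to 8.10, 0 of 9 passed). Striatal markers did not overlap there either (7.65 to 7.82 and 7.33 to 7.63, 0 of 7 passed). The part of these cell types in the member differences above was not tested. The intervals leave room for differences of these sizes, and with 3 arrays a group the comparison does not show that the genotypes were alike.

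Whether the effect of Htr3a loss changed with age was tested by an interaction, in which 0 of 37 members passed in limma, with 2 at an unadjusted p under 0.05, and 0 of 14292 genes passed (1033 at an unadjusted p under 0.05). The smallest p were those of Dcx (adjusted p 0.691), Stmn3 (adjusted p 0.691) and Lrp8 (adjusted p 0.695). For Dcx the Htr3a-KO minus control difference was 0.15 at E14.5, -0.13 at E18.5 and -0.30 at P2, for Stmn3 0.01, 0.00 and -0.35, and for Lrp8 0.20, 0.28 and -0.28. That Dcx, Cdk5r1, Lrp8, Marcks, Rac1 and Tubb5 passed over the span in Htr3a-KO cells alone, and Stmn3 in control cells alone, is thus no shown difference between the genotypes.

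The wider pathways comprised 128 tested genes in 5 lists, of which 4 are described for age. For genotype, 0 of 128 passed in limma at each age and on average (smallest adjusted p 0.659, 0.31 and 0.53 at the successive ages and 0.0558 for the average; 6, 5, 6 and 14 at an unadjusted p under 0.05). For age, counts over the span are given against 39.2% of all genes in control and 41.5% in Htr3a-KO cells. By direction, 18% of all genes rose and 21.2% fell in control cells. In Htr3a-KO cells 15.6% rose and 26% fell. Of 16 genes for LIS1, dynein and dynactin, 2 rose and 3 fell in control cells and 1 rose and 4 fell in Htr3a-KO cells: the dynein light chain gene Dynlt3 rose by 1.02 and 1.05, and Pafah1b3, a catalytic partner of LIS1 in the platelet-activating factor acetylhydrolase, decreased by 0.86 and 0.78. Katna1, a microtubule-severing katanin subunit, decreased by 1.01 and 1.06.

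Of 13 Reelin signalling genes, 2 rose and 2 fell in control cells and 1 rose and 1 fell in Htr3a-KO cells. In control cells Crkl, an adaptor that binds phosphorylated DAB1, decreased by 0.50 (adjusted p 0.00612), Reln, the ligand itself, rose by 1.06 (adjusted p 0.00729) and Rap1a, a small GTPase downstream of DAB1, rose by 0.46 (adjusted p 0.00777), and the second gene that fell was Nck1 (-0.39). In Htr3a-KO cells Rap1a rose by 0.61 and Nck2, an adaptor gene, decreased by 0.97 (adjusted p 0.0012).

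Actin filament genes passed for 11 of 32 in control cells, 3 higher and 8 lower, and for 8 of 32 in Htr3a-KO cells, 0 higher and 8 lower. Of all genes 21.2% and 26% fell, so the falls lie near the share of all genes. Dbn1, which encodes the actin-binding protein drebrin, decreased by 0.89 and 1.01, and Enah, which extends actin filaments, by 0.35 and 0.26. Fscn2, a fascin gene, decreased by 0.48 in control cells. Its mean went from 5.86 to 5.37 there, near the filter level of 5.255. In Htr3a-KO cells it averaged 5.91 and 5.61 and did not pass. Of 41 other tubulins and microtubule proteins, 15 passed in each genotype, 11 higher and 4 lower in control and 9 higher and 6 lower in Htr3a-KO cells. The beta tubulin gene Tubb6 rose by 2.57 in control (5.94-fold, adjusted p 0.000107) and by 1.87 in Htr3a-KO cells. Mapre2, a microtubule end-binding protein gene, rose by 0.63 and 0.78, and the MID1 relative Mid2 rose by 0.49 and 0.54. These changes lie across the same span in which astrocyte and oligodendrocyte markers rose and excitatory markers fell, and their part was not tested.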

How the data were processed

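Affymetrix mouse expression arrays were hybridised by the authors with RNA from sorted interneurons, and the deposited values are log2 intensities from RMA, run in Partek software (Genomic Suite 6.6), per the series' design text and the submitters' processing notes. They carry no counts, so the number of arrays limits the precision. The values were used as deposited, from 18 arrays of 45101 probe sets, with 0 unused columns. Probe sets with 1 gene in the array annotation (34945) and a mean above the lowest 30% (5.255) were kept, and the highest mean stood for each gene.

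The 6 group means were fitted in limma 3.58.1 (R 4.3.3), with 12 residual degrees of freedom and Benjamini-Hochberg adjustment over 14292 genes. The fit was tested on simulated data. The replicate numbers of the labels did not pair samples (correlation of deviations -0.542 to 0.303 over 9 pairs), so no block was used. Alternatives covered the filter, the choice of probe set, normalization, variance model, arrays fitted, a replicate block and leaving out each array. By rule, array values are given for 1 leading member of each role, for members that passed a genotype comparison or the interaction (the 3 smallest p where fewer passed), and for up to 6 rises and 6 falls of the age comparisons; pathway genes are named up to 3 a list, by smallest p. The use of the control span for that order, and the naming of Nck1 and Nck2, were chosen after the values were seen. Array values of other members were added after their values were seen. The members and gene lists were chosen with earlier results of these data known. The age result of 1 pathway list is not reported here.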

Additional observations from a re-analysis of the deposited data

How the results depend on the processing

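The 42 calls named for single members were recomputed under every alternative, and 21 passed in all of them. For members with 1 probe set above the filter, such as Mid1 and Rnd2, the alternatives on the choice of probe set could not change the difference. Of 1086 recomputed values for 56 named results, 994 kept their direction and side of the threshold, 81 lost the call, 3 gained one and 8 reversed.

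Counts of members called moved as follows, also when single arrays were left out. The share of all genes that passed under each alternative is not given beside them. These counts therefore do not show a change particular to the members. When each gene's probe sets were averaged, 5 passed from E18.5 to P2 in control and 14 over the control span. With the probe set of largest variance, 5 passed from E18.5 to P2 in control and 7 from E14.5 to E18.5 in Htr3a-KO. Trended variance gave 5 from E18.5 to P2 in control. Array weights gave 2 for genotype at E18.5, 9 and 5 for the control steps and 8 and 13 for the Htr3a-KO steps. Fitting only the arrays compared gave 0 from E18.5 to P2 in control. With the replicate block, 1 member passed for genotype at P2 (Mid1, adjusted p 0.0428) and 1 from E18.5 to P2 in control; apart from Marcks, Dcx and Dclk1, the block ended no named call, and 1 of 9 arrays correlated best with its own number.

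Values that reversed were Ndel1 at E18.5 (Htr3a-KO minus control, 0.11 with the mean of probe sets and 0.54 with the largest variance) and, with the largest variance, Dcx at P2 (Htr3a-KO minus control, 0.04), Marcks from E18.5 to P2 in control (-0.53) and over the Htr3a-KO span (-0.89), Tubb2a from E14.5 to E18.5 (-0.21) and over the span (-0.45) in Htr3a-KO, and Dclk1 from E18.5 to P2 in Htr3a-KO (-0.05). These come from another probe set of the gene.

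Leaving out 1 array at a time gave 2 to 5 members from E14.5 to E18.5 in control (2 on dropping array 1 or 2 of the E14.5 controls or array 1 of the E18.5 controls, 3 on dropping array 3 of the latter) and 1 to 4 in Htr3a-KO (1 without E18.5 Htr3a-KO array 1 or 2). From E18.5 to P2 it gave 1 to 6 in control (1 on dropping array 1 of E18.5 or array 3 of P2, 6 on dropping array 1 of P2) and 4 to 6 in Htr3a-KO (4 without P2 Htr3a-KO array 1). Over the span it gave 8 to 12 in control and 12 to 15 in Htr3a-KO. For genotype it gave 0 at each age, 1 for the average and 0 for the interaction. Signals within 0.26 of the array maximum (Stmn1, Tuba1a) and 3 arrays a group limit what could be detected. Other members lay close to that maximum as well, among them Tubb5 (0.30 to 0.58 below it), Marcksl1 (0.42 to 0.77), Ywhae (0.57 to 0.96) and Cfl1 (0.58 to 1.02). The part of such a ceiling in the small member differences was not tested.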
